A study of Rattus norvegicus with 18 samples.

Results

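Sites of N6-methyladenosine (m6A) enrichment that were called in a single library were examined in H9c2 cells. Peaks of the 9 deposited mRNA peak lists that overlapped by 1 base or more were merged into 9022 sites, and a site was a member when exactly 1 of the 9 lists held a peak in it. Of the 9022 sites, 3005 were such one-library sites, which is 33.3% of all merged sites. They lay in 2360 of the 4846 genes with a site (48.7%), and 1227 of those genes (25.3% of all genes with a site) had one-library sites alone. The members were chosen by the calls themselves, that is by the peak p-values that passed the caller's threshold, so their number, scores and fold enrichments are a description and carry no test here.

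H9c2 is a cell line derived from embryonic rat heart. The SYD-H group received 2 mg/mL Shen-Yuan-Dan (SYD), a capsule made from several botanical drugs, together with 50 μM phenylephrine (PE) for 24 h. The Model group received 50 μM PE for 24 h, and the Control group received neither. PE activates α1-adrenergic receptors, a signal under which cardiomyocytes enlarge. The sample labels and the methods give 2 mg/mL for SYD-H, whereas GEO's design text for the series has 1 mg/mL. Each group had 3 replicates, each with an immunoprecipitated (IP) and an input library, which makes 18 sequenced samples and 9 peak lists. No source states that the replicates came from separate cultures, so p-values measure the spread between these samples, which may be technical.

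m6A is the most common internal mark of mRNA. A methyltransferase complex built around METTL3 and METTL14 writes it, demethylases such as FTO and ALKBH5 remove it, and reader proteins of the YTH and IGF2BP families bind the marked RNA and alter its decay, translation or stability. MeRIP-seq breaks RNA into fragments, captures the methylated ones with an m6A antibody, and sets the captured reads against input reads. A peak is a stretch where the captured fragments exceed the input by the rule of the peak caller. A site missing from a list was therefore not called there, which is not the same as a site without m6A, and no reads below the threshold were used here.

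The peak lists differed in length. They held 2508, 2691 and 2786 peaks in the SYD-H replicates 1, 2 and 3, against 4476, 2883 and 4187 in the Model replicates and 5556, 3629 and 4245 in the Control replicates. Every peak carries a score, which is the negative log10 of its p-value times 10, and a fold enrichment (IP over input). No score was below 20, and the deposited false discovery rate stood at 100% throughout. The lists do not show read depth, which is unknown here, so counting error is not given. Of the 18 markers of cardiomyocytes and myoblasts that were checked, 4 had a site (Gata4, Mef2c, Nkx2-5 and Tnnt2), as did 1 of 7 fibroblast and 1 of 4 epithelial markers, while endothelial, leukocyte and neuronal markers had 0. A gene without a peak may still be expressed, so these lists do not measure the identity of the cells.

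One-library sites were the most frequent class of sites. The number of sites declined from 3005 in 1 list to 1372 in 2 lists, 937 in 3 lists, 765 in 4 lists, 575 in 5 lists, 503 in 6 lists and 413 in 7 lists, then was 535 in 8 lists and 917 in all 9. Where several lists held a site they usually gave it the same borders, since 4649 of the 6017 sites in 2 or more lists (77.3%) had one start and one end in every list that held them. Requiring an overlap of 50% of the shorter peak gave 3010 one-library sites, and joining peaks up to 100 bases apart gave 2991.

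**Figure D1:**
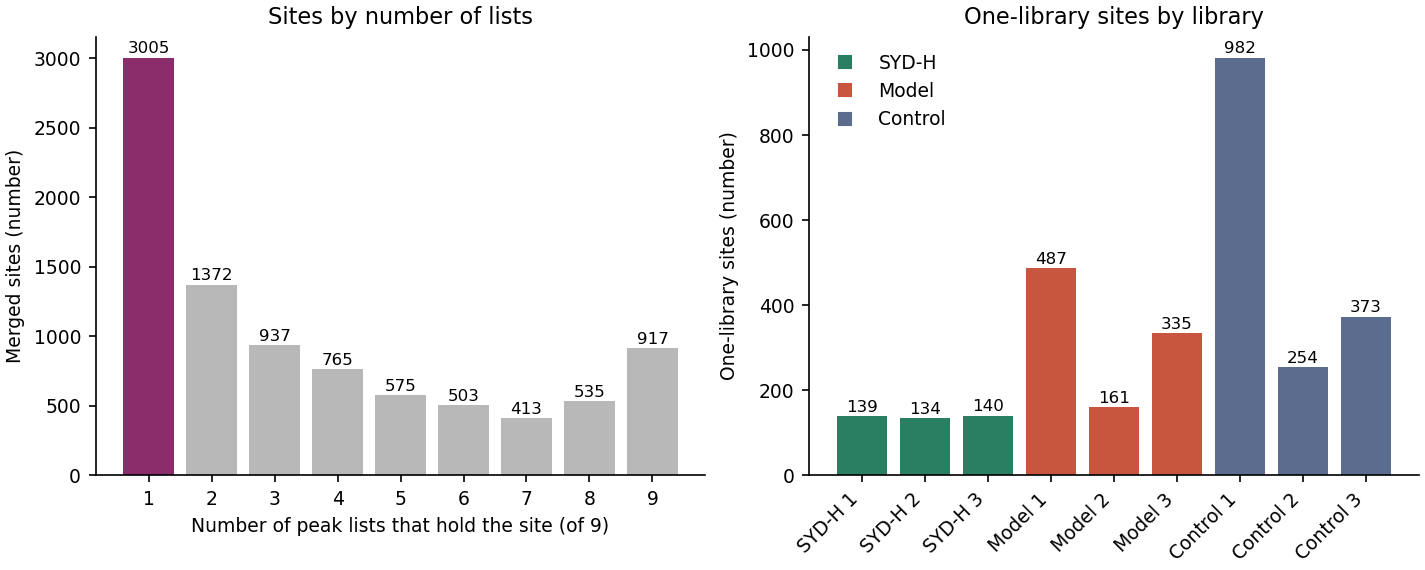
Left, number of merged sites (y axis) by the number of peak lists that hold them (x axis, 1 to 9). Right, number of one-library sites in each of the 9 libraries, coloured by group. One-library sites (3005) outnumber sites in 2 lists (1372), and Control replicate 1 holds 982 of them while the 3 SYD-H libraries hold 134 to 140 each.

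The libraries contributed very unequal numbers. One-library sites numbered 139, 134 and 140 in the SYD-H replicates, 487, 161 and 335 in the Model replicates and 982, 254 and 373 in the Control replicates. As a share of all merged sites, one-library sites of the SYD-H group made up 4.58% (413 sites), those of the Model group 10.9% (983 sites) and those of the Control group 17.8% (1609 sites). Control replicate 1 alone held 32.7% of the members. The SYD-H libraries lay below all others, and the Model and Control libraries overlapped.

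The mean number was 138 ± 3.21 in SYD-H, 328 ± 163 in Model and 536 ± 391 in Control (SD, n = 3 each). The SYD-H mean was 0.420 of that of Model and 0.257 of that of Control. Without Control replicate 1, recomputed means were 173 in SYD-H, 457 in Model and 416.5 in Control, so that Control was no longer the highest group.

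The share of each list taken by one-library sites showed the same picture. It was 5.54%, 4.98% and 5.03% in the SYD-H replicates, 10.9%, 5.58% and 8.0% in the Model replicates and 17.7%, 7.0% and 8.79% in the Control replicates. The group means were 5.18 ± 0.313% in SYD-H, 8.16 ± 2.65% in Model and 11.2 ± 5.72% in Control (SD, n = 3 each). Longer lists held larger shares. Ordered by list length, the share increased at each step among the 8 longest lists, and the shortest list, SYD-H replicate 1, was the exception.

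List length and group cannot be told apart in the deposited lists, because the SYD-H lists were the shortest. When each list was cut to its 2508 highest-scoring peaks and the sites were rebuilt, there were 1942 one-library sites among 5951 sites, and the order of the groups turned round. One-library sites then numbered 296, 250 and 247 in the SYD-H replicates, 188, 237 and 159 in the Model replicates and 195, 221 and 149 in the Control replicates. The means were 264 ± 27.5 in SYD-H, 195 ± 39.4 in Model and 188 ± 36.5 in Control (SD, n = 3 each). The 3 SYD-H lists lay above all others. The cut left SYD-H replicate 1 whole and took the lowest-scoring peaks from longer lists. A site could thus become a one-library site when its weaker calls in other lists were cut. The direction of the group difference in one-library sites therefore depended on whether lists of unequal or equal length were compared.

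**Figure D2:**
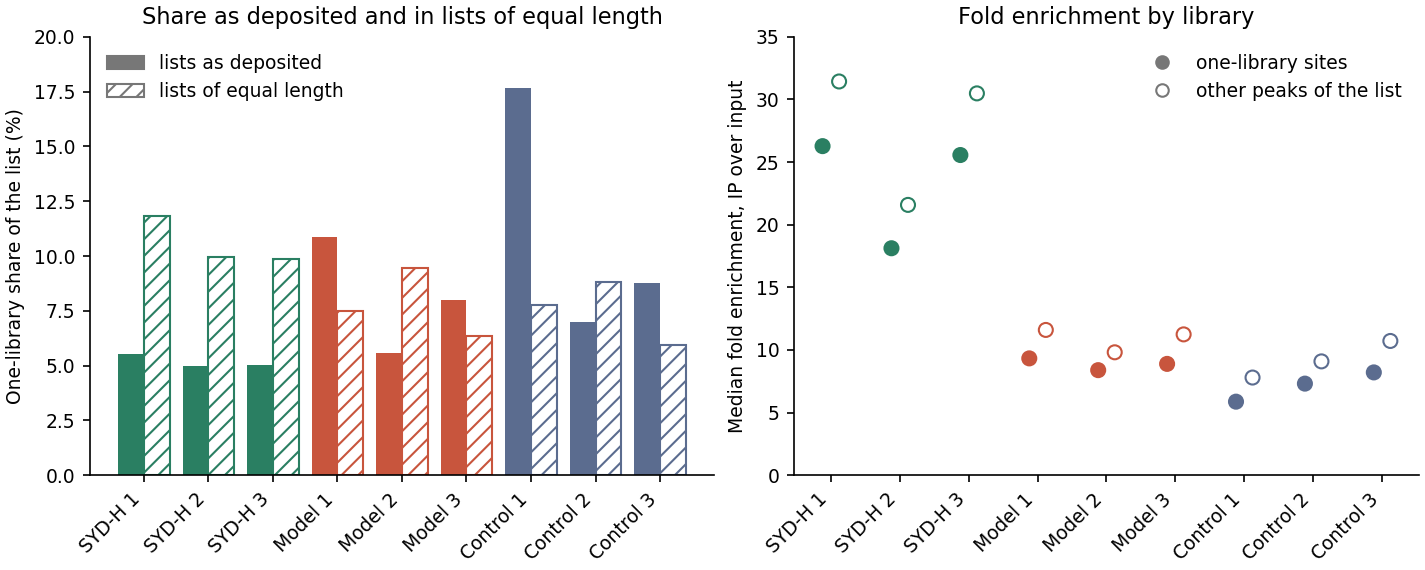
Left, share of each list in one-library sites (y axis, percent) for the 9 libraries, with lists as deposited (filled bars) and cut to 2508 peaks each (hatched bars). Right, median fold enrichment of IP over input (y axis) of one-library sites (filled points) and of the other peaks of the same list (open points). SYD-H shares are the lowest as deposited and the highest in lists of equal length, and SYD-H folds are the highest for both kinds of peak.

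One-library sites were weak peaks for the most part. Their median score was 28.0, against 31.0 for peaks of sites in 2 lists, the class just outside the rule, and 56.0 for all peaks of sites in 2 or more lists. Scores under 25 were found in 1084 members (36.1%), against 12% of the other peaks. Scores of 100 or more were found in 97 members (3.23%), against 30.5% of the other peaks.

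The pattern held in each library. Median scores of one-library sites were 25.6, 25.8 and 26.6 in the SYD-H replicates, against 42.6, 45.4 and 44.8 for the other peaks of the same lists. They were 28.7, 26.6 and 26.8 in the Model replicates, against 61.8, 51.0 and 57.3 for the other peaks. They were 31.3, 26.0 and 27.1 in the Control replicates, against 79.7, 54.5 and 62.3 for the other peaks. In the lists as deposited, the medians of one-library sites thus lay within 25.6 to 31.3, and Control replicate 1, which had the longest list, had the highest. The means of these medians were 26.0 ± 0.508 in SYD-H, 27.4 ± 1.16 in Model and 28.2 ± 2.82 in Control (SD, n = 3 each). Every SYD-H median lay narrowly below every Model median (26.575 at most against 26.61 at least), and Control overlapped with both. In lists of equal length the medians were 26.2, 27.2 and 28.7 in the SYD-H replicates and 62.5, 32.3 and 53.3 in the Model replicates. They were 101 (101.06), 42.8 and 55.1 in the Control replicates, so the SYD-H libraries then lay below all others. The cut took more low-scoring peaks from longer lists, so the order of these medians was partly set by the cut.

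**Figure D3:**
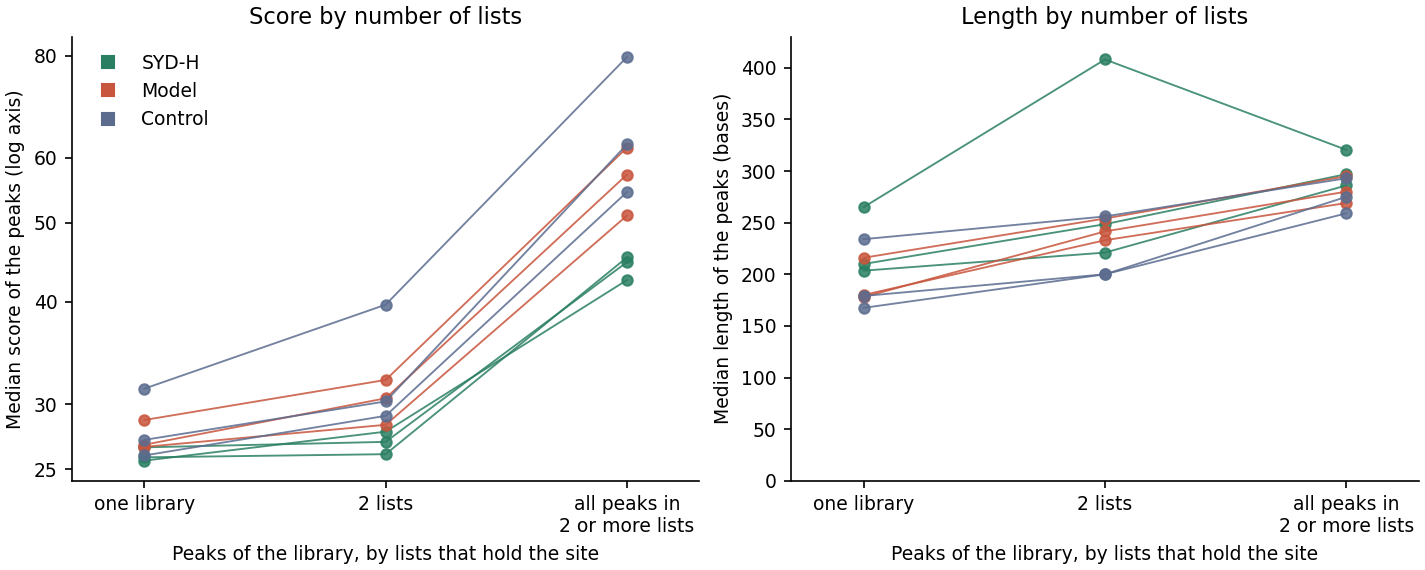
Median score (left, log axis) and median length in bases (right) of the peaks of each library (1 line per library, coloured by group), for one-library sites, for sites in 2 lists and for all peaks of sites in 2 or more lists. Median scores of one-library sites lie between 25.6 and 31.3 in all libraries, and their median length is below that of peaks in 2 or more lists in 9 of 9 libraries.

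Fold enrichment of one-library sites was highest in the SYD-H libraries. Their median fold was 26.3, 18.1 and 25.6 in the SYD-H replicates, against 9.33, 8.39 and 8.89 in the Model replicates and 5.88, 7.32 and 8.21 in the Control replicates. SYD-H overlapped with neither other group, and every Control library lay below every Model library. The mean was 23.3 ± 4.51 in SYD-H, which was 2.63 times the 8.87 ± 0.470 of Model and 3.27 times the 7.13 ± 1.18 of Control (SD, n = 3 each). The same order was seen in the other peaks of the lists, with mean medians of 27.8 ± 5.43 in SYD-H, 10.9 ± 0.945 in Model and 9.20 ± 1.46 in Control, so the high fold of SYD-H was not particular to one-library sites. The caller scales the fold within each library, so it is no level of m6A.

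One-library sites were shorter than the other peaks of their lists. They ranged in length over 10 to 8082 bases with a median of 201, and 13.6% were under 100 bases, against 8.16% of the other peaks. Median lengths were 210, 203.5 and 265 bases in the SYD-H replicates, 216, 180 and 178 in the Model replicates and 234, 167.5 and 179 in the Control replicates. The other peaks of the same lists had medians of 297, 286 and 320.5 bases in SYD-H, 295, 269 and 280 in Model and 293, 259 and 275 in Control. Peaks of sites in 2 lists had medians of 248.5, 221 and 408 bases in SYD-H, 254, 233 and 241.5 in Model and 256, 200 and 200 in Control. Averaged over libraries, their median of 251 bases lay between 204 for one-library sites and 286 for all other peaks. The difference, one-library minus other peaks, averaged -82.4 ± 15.8 bases (SD, n = 9 libraries) and was negative in 9 of 9 libraries (two-sided exact sign-flip permutation p = 0.00391, the smallest possible, adjusted p = 0.00391 over 2 tests). Among peaks with a score under 30 it was -48.3 bases (exact permutation p = 0.00391). With a score of at least 50 it was -47.7 bases (exact permutation p = 0.0508), and in lists of equal length -45.6 bases (exact permutation p = 0.195). A longer peak offers more bases for an overlap with another list, so length is not wholly independent of the rule. The other peaks are sites that these same libraries share, so the 9 differences are not independent of each other. Among groups, the lengths did not separate (exact permutation test of the F statistic over 1680 assignments of the libraries, p = 0.354, adjusted p = 0.433 over 6 measures).

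One-library sites were less often accompanied by a shared site in the same gene. The share of members in genes with another site in 2 or more lists was 59.7%, 56.0% and 45% in the SYD-H replicates, 47.6%, 56.5% and 57.6% in the Model replicates and 48.1%, 55.9% and 60.9% in the Control replicates. The other peaks of the lists had shares of 60.5% to 65.5%. The difference, one-library minus other peaks, averaged -9.30 ± 4.94 percentage points (SD, n = 9 libraries), was negative in 9 of 9 libraries and ranged over -18.2 to -2.11 points (two-sided exact sign-flip permutation p = 0.00391, adjusted p = 0.00391). It remained below 0 with a score of at least 50 (-10.8 points, exact permutation p = 0.0117) and in lists of equal length (-11.9 points, exact permutation p = 0.00391). Among peaks with a score under 30 it was -5.30 points and negative in 8 of 9 libraries (exact permutation p = 0.0156). Whether a neighbour is shared is read from the same calls as the rule. A gene with more sites also has more chances of a shared neighbour. The share is therefore not independent of the rule, and as with length the 9 differences are not independent of each other. The p-values for this share thus describe how the calls are arranged and carry no support for a difference. The shares did not separate the groups (exact permutation p = 0.914, adjusted p = 0.914).

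Over all libraries, 1057 of the 3005 one-library sites (35.2%) were the only site of their gene. Another 370 (12.3%) lay in genes whose other sites were also one-library sites, 1223 (40.7%) in genes with a site in 2 to 8 lists, and 355 (11.8%) in genes with a site in all 9 lists. Of sites in 2 lists, the class just outside the rule, the shares were 33.5%, 11.2%, 39.8% and 15.5% in the same order. They were close to those of one-library sites, so this trait was not particular to one-library sites. Of sites in all 9 lists, 23.6% were the only site of their gene and 33.0% had a neighbour in all 9 lists. For 1163 members (38.7%) the gene had no peak in any other list, whereas for 471 (15.7%) the gene had a peak in every list.

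**Figure D4:**
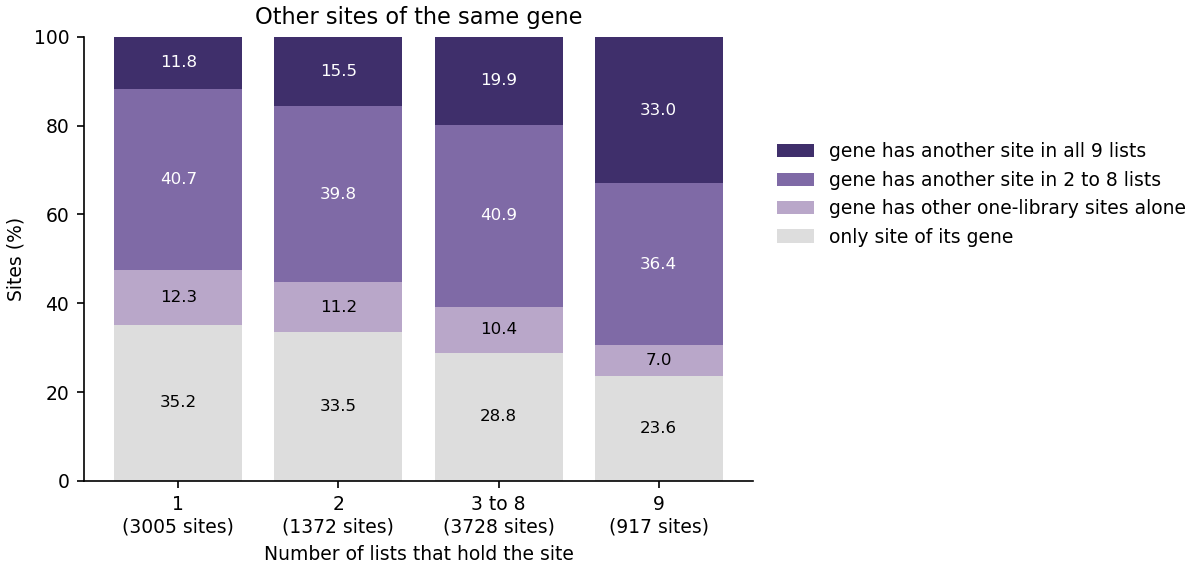
Share of sites (y axis, percent) by what other sites their gene holds, for sites in 1, 2, 3 to 8 and all 9 lists (x axis, with the number of sites). The only site of a gene makes up 35.2% of one-library sites and 23.6% of sites in all 9 lists, and genes with another site in all 9 lists make up 11.8% and 33.0%.

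Where the gene had another site on the chromosome (1945 members), the nearest lay a median of 4281 bases away, and 297 members had one within 1000 bases. In 1045 of the 1945 the same list also held that nearest site, and in 900 (46.3%) it did not. A one-library site lay within 2000 bases of a site in 5 or more lists that its own list lacked in 33 cases. A pair of these was among the highest-scoring members. In Map6, which encodes a microtubule-stabilizing protein, the site of Model replicate 2 (chr1:164227363-164228000, rn6, score 247.71) lay 138 bases beyond a site that each of the other 8 lists held and Model replicate 2 did not. In Anp32a, an acidic nuclear phosphoprotein, the site of Control replicate 3 (chr8:67333039-67333247, score 238.06) lay 240 bases from a site held by the other 8 lists, with scores of 74.84 to 972.3. For these genes the call was in a single library, while the neighbouring call was absent from that library alone.

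Members with high scores were few. A score of 100 or more was found in 1, 7 and 2 members of the SYD-H replicates, in 22, 5 and 5 of the Model replicates and in 46, 4 and 5 of the Control replicates. Control replicate 1 and Model replicate 1, which held most of them, also had the most members of any score (982 and 487). SYD-H replicate 2, with 7, had 134 members. Of these 97 high-scoring members, 35 were the only site of their gene (36.1%, against 35.2% of all members). Another 57 lay in genes with another site in 2 or more lists. Names of the LOC, RGD, AABR or NEWGENE kind, which are given to predicted or provisional genes, were carried by 12 of the 97. Among the 2360 genes with a one-library site, 127 had such names, which is a count of genes and not of sites. The difference was not tested.

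The highest score of any one-library site, 3100, belonged to Myh9l1 in Control replicate 1 (chr7:118997775-118997987). The value 3100 recurs exactly in several of the strongest calls, below the highest score of any peak, 3224.03. Equal scores of 3100 may therefore not mean equal strength. The files place Myh9l1 on the same chromosome as Myh9, the heavy chain of non-muscle myosin IIA, and the RefSeq table gives the gene ID of Myh9l1 the symbol Myh9. The first 7 sites of Myh9l1 had the same lengths, in the same order, as the first 7 sites of Myh9 (317, 209, 129, 213, 249, 213 and 207 bases). The counterpart of the member in Myh9 was held by SYD-H replicate 2 and Control replicate 1, at 3100 in both. Reads of such near-identical copies may be assigned to either, and these sites are uncertain.

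Myh9 itself had 11 sites, of which 4 were called in one library. SYD-H replicate 2 held 3 of them, at chr7:118774717-118774810 (score 41.40), chr7:118787360-118787516 (score 832, fold 67.4) and chr7:118792154-118792625 (score 294.1). Control replicate 3 held the other, at chr7:118756740-118756900 (score 451.19, fold 6.49). Both libraries also held the Myh9 sites that were called in all 9 lists, each at a score of 3100. The members were therefore additional calls in a gene with very strong peaks everywhere.

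SYD-H replicate 2 also held the strongest members of Cttn and Gspt1. Cttn encodes cortactin, which binds branched actin filaments, and its 3 members of that library lay side by side at chr1:215255381-215260578, with scores of 594.75, 337.66 and 144.39. Cttn had 16 sites over separate stretches of chromosome 1 with sites of equal length in both, so the copy that gave the reads is uncertain. Gspt1, which encodes the translation termination factor eRF3a, had its strongest member at chr10:4312863-4313642 (score 562.17), and it too had sites of equal length at separate places. Among all members, 59 (1.96%) shared gene name and length with another site, against 1.38% of sites in 2 lists, 2.04% of sites in 3 to 8 lists and 1.64% of sites in all 9. Leaving out every such site left 2946 one-library sites.

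Several of the strongest members were the only site of their gene. Pcca, a subunit of propionyl-CoA carboxylase in mitochondria, had a site of 71 bases at chr15:108981547-108981617 in Model replicate 2 alone, with a score of 1310.02 and a fold of 104. Vps13c, a lipid transfer protein, had a site of 27 bases at chr8:73804480-73804506 in Control replicate 1 alone, with a score of 935.73. Arpc5, a subunit of the Arp2/3 complex that nucleates actin branches, had a site in SYD-H replicate 3 alone with a score of 105.65. None of these genes had a peak in any of the other 8 lists.

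Other strong members with no further site included genes with provisional names. AABR07035375.1 had a score of 1583.88 in Model replicate 1 and AABR07002779.1 a score of 1074.27 in SYD-H replicate 3, and the files give neither a description. LOC100359668, described in the files as ferritin light chain 2, had a score of 200.81 in SYD-H replicate 1. Hnrnpa3, an RNA-binding protein, had 166.82 and Rpl21, a ribosomal protein, had 155.59 in Control replicate 2. Whether reads of these sites could come from other copies of the genes was not tested.

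Other high-scoring members lay in genes that also had further sites, among them regulators of RNA and chromatin. Ybx1, a protein that binds RNA and DNA through its cold shock domain, had members in Model replicate 1 (score 481.81) and Control replicate 1 (score 133.63) that lay 434 bases apart, while another site of the gene was held by all 9 lists at 749 to 3100. Kmt5a, which methylates histone H4, had a member in Model replicate 1 with a score of 349.78. Lig1, the DNA ligase of replication, had a member in Model replicate 3 with a score of 142.42. Hmg20b, a chromatin protein, had a member in SYD-H replicate 1 with a score of 90.91, and its other site was a one-library site too. Ylpm1, Os9 and Ubfd1 each had a top member in a gene with another site held by 4 or more lists.

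Genes could hold many one-library sites. Of the 2360 genes, 1880 had exactly 1 and 480 had 2 or more. In 364 of the 480 the sites came from 2 or more libraries, and in 274 from 2 or more groups. In 23 genes each of the 3 groups held at least 1. The sites of a gene share its transcript and its expression and are not replicates of each other.

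Dst had the most, with 9 of its 18 sites called in one library. It encodes dystonin, a very large linker of the cytoskeleton. Control replicate 1 held 6 of the 9, Model replicate 1 held 2 and Model replicate 3 held 1, at scores of 22.17 to 60.11, and no SYD-H library held any. The longest of them spanned 5238 bases at chr9:38017332-38022569 and had a score of 31.27. By contrast, the Dst sites held by 8 lists reached 138.67, 142.49 and 198.46.

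Itpr3, an inositol trisphosphate receptor that releases calcium from the endoplasmic reticulum, had 7 one-library sites among 10. They were spread over 5 libraries of all 3 groups, with scores of 39.32 and 28.01 in SYD-H replicate 3, 31.82 in SYD-H replicate 2, 23.53 in Model replicate 3, 42.26 and 54.29 in Control replicate 2 and 30.32 in Control replicate 3. Its most widely held site was in 6 lists at 73.88 to 247.99. Every one-library site of Itpr3 was thus weaker than every call of the most shared site.

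Trio, a guanine nucleotide exchange factor, had 6 one-library sites of 13, spread over 5 libraries, with scores of 22.26 to 45.62, beside a site in all 9 lists at 32.23 to 131.86. Pard3, a polarity protein of cell junctions, had 6 of 8, at 21.49 to 30.79. Sap130, a subunit of the Sin3 histone deacetylase complex, had 6 of 7, at 20.32 to 37.78, with 4 of them in Control replicate 1. Epb41l1, a membrane skeleton protein, had 5 of 10. Aldh18a1, an enzyme of proline synthesis, had 5 sites, all of them called in one library and from all 3 groups, at 24.61 to 62.35. The Aldh18a1 sites at chr1:259063657-259063852 and chr1:259647923-259648118 had equal lengths, which leaves their copy uncertain.

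**Figure D5:**
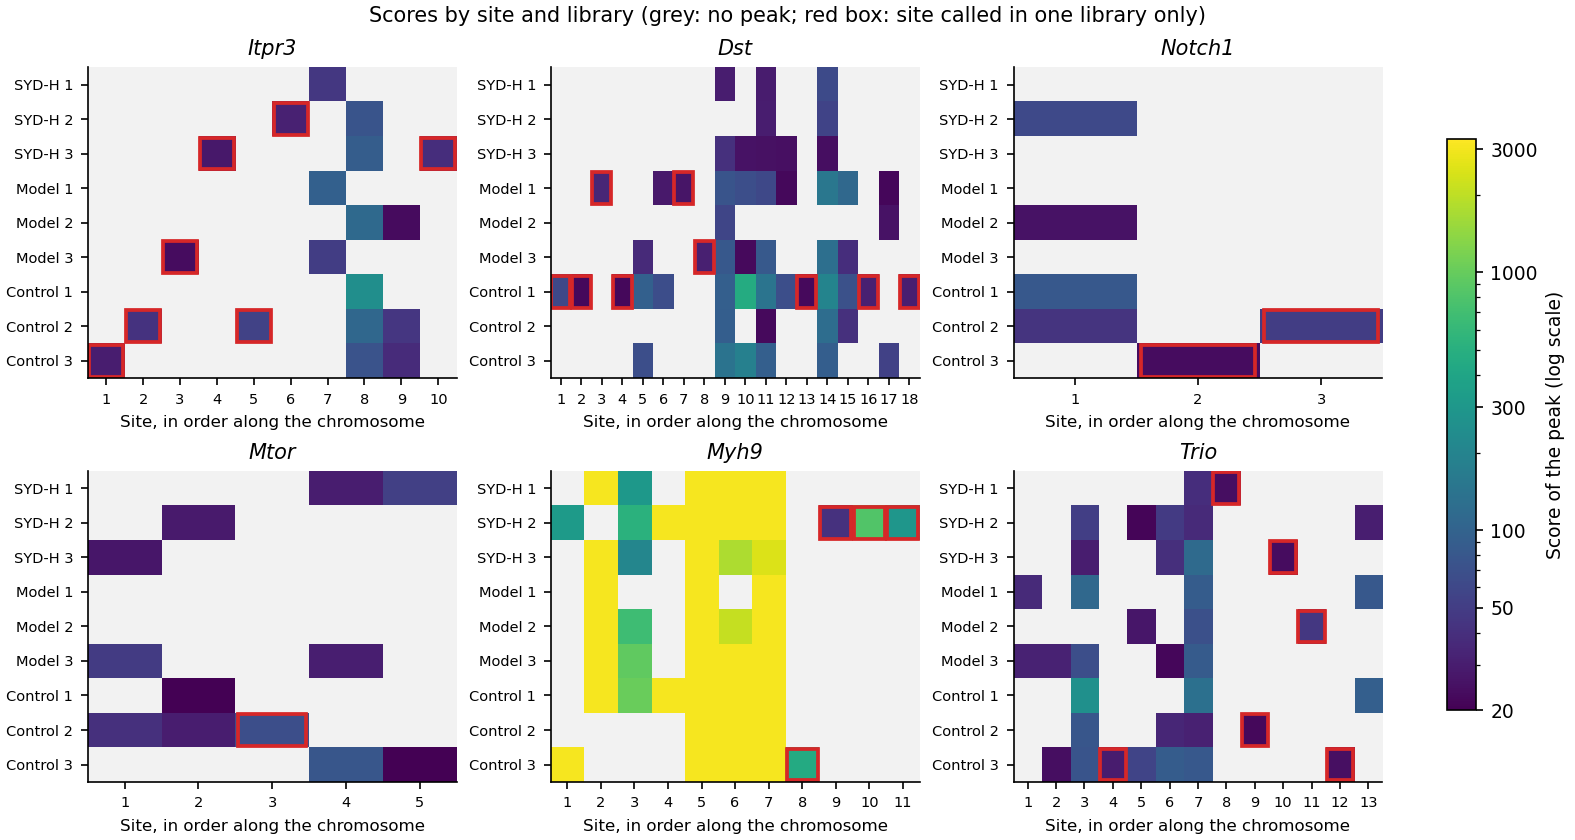
Scores (colour, log scale) of the sites of Itpr3, Dst, Notch1, Mtor, Myh9 and Trio in the 9 libraries (rows), with sites in their order along the chromosome (columns). Grey cells have no peak and red boxes mark one-library sites, which are scattered over libraries in Itpr3 and Trio and lie mainly in Control replicate 1 in Dst and in SYD-H replicate 2 in Myh9.

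Groups of genes were then read against the 48.7% of all genes with a site that held a one-library site. The lists were drawn up with earlier results of these data known, and their counts are a description. Genes with many sites have more chances to hold a member, and this was not adjusted for.

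Of the m6A writers, erasers and readers, 12 had a site and 4 (33.3%) a one-library site. The readers Igf2bp1, Igf2bp2 and Ythdf1 had members with scores of 25.47 in SYD-H replicate 2 and 22.62 in Control replicate 3 for Igf2bp1, 22.55 and 32.67 in Control replicate 3 for Igf2bp2, and 71.56 in Model replicate 3 for Ythdf1. Mettl16, which methylates U6 small nuclear RNA, had its only site in Control replicate 1 at 30.88. Mettl3, the catalytic writer, had no site in any list.

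Autophagy genes held a one-library site in 14 of 23 genes with a site (60.9%), with 1 site from SYD-H, 3 from Model and 14 from Control. Over all members, 13.7% came from SYD-H, 32.7% from Model and 53.5% from Control, and the split of a gene list by group was not tested in any list. Ulk1 and Atg13, parts of the kinase complex that starts autophagy, each had a single site, in Control replicate 3 (score 20.07) and in Control replicate 1 (score 49.83). Rb1cc1 of the same complex had a single site of 10 bases in Model replicate 1 (score 30.39). Atg9a, Atg2b and Wipi1, which act in membrane supply to the growing autophagosome, likewise had their only site in 1 Control library. Map1lc3b, which encodes the autophagosome protein LC3B, had a one-library site in Control replicate 3 at 22.44, beside a site in all 9 lists at 29.5 to 465.24. Sqstm1 and Becn1 had no site.

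In mTOR signaling and the TFEB family, 13 of 26 genes with a site (50.0%) held a one-library site. Of these sites, 4 came from SYD-H, 6 from Model and 6 from Control, against 13.7%, 32.7% and 53.5% of all members. Mtor, the kinase that restrains autophagy when nutrients are present, had 5 sites and none in more than 3 lists. Its member was the 135-base site at chr5:165270434-165270568 in Control replicate 2, with a score of 68.20 and a fold of 12.2. That score lay within the range of the other Mtor calls, 20.13 to 78.61, and the gene had a peak in 7 of the 9 lists. Tfeb, a transcription factor of lysosomal genes, had a member of 232 bases in SYD-H replicate 2 at chr9:15214365-15214596 with a score of 20.30, close to the lowest score in the lists. The member is not a one-library site when peaks up to 100 bases apart are merged. The other site of Tfeb, 81 bases away, was held by Model replicates 1 and 2 and Control replicate 3 at 37.25, 31.12 and 23.37. Tfe3, a paralog of Tfeb, had its only site in Model replicate 3 (24.77), and Flcn, which acts on the same pathway at the lysosome, its only site in SYD-H replicate 1 (20.54). Tsc1, an inhibitor of mTORC1, had members in Control replicate 1 (83.69) and Model replicate 3 (23.31).

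Genes of hypertrophy, adrenergic and calcium signaling held a one-library site in 14 of 21 (66.7%). Of these sites, 5 came from SYD-H, 8 from Model and 11 from Control, against 13.7%, 32.7% and 53.5% of all members. The cardiac transcription factors Gata4 and Mef2c had a single site each, in Control replicate 1 (29.15) and Model replicate 1 (30.88). Gata6 had a member in SYD-H replicate 2 at 67.56, with 2 bases between it and a site in 7 lists, and the member is not a one-library site when peaks up to 100 bases apart are merged. Mef2d had members in Model replicate 2 (116.32) and Control replicate 3 (22.69) and no other site. Hdac7, a histone deacetylase of the class that restrains MEF2 factors, had a member in each group, at 42.69 in SYD-H, 37.27 in Model and 24.97 in Control. Gnaq, which couples α1-adrenergic receptors to phospholipase C, had a member in Model replicate 1 at 20.03 and another site in all 9 lists.

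Of the genes of the extracellular matrix and TGF-β signaling, 13 of 26 (50.0%) held one. Their one-library sites numbered 7 in SYD-H, 9 in Model and 9 in Control, against 13.7%, 32.7% and 53.5% of all members. The collagen genes Col5a1, Col4a1, Col4a2 and Col5a2 contributed 4, 3, 3 and 3 members, sites of 45 to 168 bases in genes with other sites in all 9 lists. Col5a1 had 28 sites in all. Its member in SYD-H replicate 1 (63.29) was the highest of its 4. Col16a1 and Col5a3, which entered by their number of members, had 5 each at scores of 21.10 to 50.42. Tgfb3, a TGF-β ligand, had its only site in Model replicate 1 (41.89), and its receptor gene Tgfbr2 had a member in Model replicate 2 (78.47) beside a site in 6 lists.

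Muscle structure genes held a one-library site in 9 of 15 (60%). Their one-library sites numbered 6 in SYD-H, 8 in Model and 6 in Control, against 13.7%, 32.7% and 53.5% of all members. Tnnt2, cardiac troponin T, had a 34-base member in Control replicate 1 (36.92). Myh4, a myosin heavy chain of fast skeletal muscle, had members in Model replicate 2 (42.00), Control replicate 1 (82.90) and Control replicate 3 (185.02) beside sites in all 9 lists.

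Chromatin regulators held one in 32 of 46 (69.6%). Of these sites, 4 came from SYD-H, 21 from Model and 26 from Control, against 13.7%, 32.7% and 53.5% of all members. Tet2, an enzyme that oxidizes methylated cytosine in DNA, had 1300-base and 1455-base members in Model replicate 1 (39.25) and Control replicate 1 (28.27) and no other site. Chd4 and Smarca4, ATPases that remodel nucleosomes, had members in genes with a site in all 9 lists, at 53.44 in SYD-H replicate 1 for Chd4 and 74.41 in Control replicate 1 for Smarca4. Bptf had 4 members of 6 sites, in Model replicate 1 and Control replicate 1 alone.

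Notch signaling genes held a one-library site in 8 of 13 (61.5%), and all 9 of these sites came from Control libraries, as did 53.5% of all members. Control replicate 1 held Adam17 (49.44), Jag1 (52.31), Maml2 (115.27), Notch2 (38.46) and Notch3 (20.33). Control replicate 2 held Notch1 (50.34) and Rbpj (38.50), and Control replicate 3 held Notch1 (23.84) and Maml1 (21.12). Jag1 is a ligand, the Notch genes encode receptors, Adam17 is a protease that can cleave them, and Rbpj with Maml1 and Maml2 forms the nuclear complex of the pathway. Their median score was 38.5, and the share from Control was not tested.

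Immediate early and MAPK genes held a one-library site in 8 of 23 (34.8%), among them Fos in Control replicate 1 (20.83, its only site) and Klf10 in the same library (158.38). Of the stress response genes (unfolded protein and oxidative), 10 of 19 (52.6%) held a one-library site, such as the endoplasmic reticulum stress sensor Ern1 in Control replicate 1 (48.73) and the phosphatase subunit Ppp1r15a in Model replicate 1 (45.36), each the only site of its gene. Cell cycle genes held one in 5 of 15 (33.3%), with cyclin D1 (Ccnd1) in SYD-H replicate 1 (29.48) and the inhibitor Cdkn1b in Model replicate 1 (32.43) as only sites. In SYD-H, Model and Control, the one-library sites numbered 1, 1 and 6 for immediate early and MAPK genes. They numbered 0, 4 and 6 for stress response genes and 2, 2 and 2 for cell cycle genes. Of 36 oxidative phosphorylation genes, 3 had a site and 1 a one-library site (Nrf1 in Control replicate 3, 41.75). None of the 41 listed ribosomal protein genes had a site, and Rpl21, named above, is not on that list.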

How the data were processed

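MeRIP-seq was performed by the authors on 3 groups of H9c2 cells. Per the labels and the methods, the authors used cutadapt 1.9.3 for trimming and HISAT2 2.0.4 for alignment to rn6, called peaks of IP against input for each replicate with MACS and kept peaks on mRNA. The 9 deposited lists give for each peak its position, its length, a score, which equals the deposited -10*log10 p-value in every row, a fold enrichment (a ratio scaled within the replicate) and a false discovery rate in percent. The authors' programs assigned genes. Depth is unknown from these lists.

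Starts are printed counted from 1. Peaks of the 9 lists were merged at an overlap of 1 base or more, and a site counted once per list. Score, fold and length of one-library sites were summarized by a median per library. In all, 6 measures were compared among groups with F statistics under exact permutation and, for pairs, with differences of means, with Benjamini-Hochberg adjustment. The calls themselves chose the members, so number, share, score and fold are given as descriptions, and their p-values stand only among the alternatives. One-library and other peaks of a list were compared by an exact sign-flip permutation test over the 9 libraries. The merging code was run on 5 simulated sets of 9000 sites, in which 100% of sites received their true number of lists. Simulated sites lay far apart and all peaks of a site shared its centre, so this result was set by the design. Closely spaced sites were not tried. Members, gene lists and tests were chosen with earlier results of these data known.

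Named genes are the 3 highest-scoring one-library sites of each list, the 10 genes with most one-library sites, genes of the lists with a one-library site, and Mettl3, Mtor, Tfeb, Sqstm1, Map1lc3b and Becn1. Not every gene that the rule takes in is described. Of the 2360 gene IDs, 2256 were found in the RefSeq table (GRCr8), which was used for names only. Sequences, motifs and positions within transcripts were not analysed here. Alternatives were lists of equal length, a minimum score of 50, an overlap of 50% of the shorter peak, merging up to 100 bases apart, genes in place of sites, means in place of medians, a replicate block, and leaving out each library. Peaks with a score under 30 alone, and leaving out sites that share gene name and length, were chosen after seeing the data. Computations ran in Python 3.11.15 with pandas 2.3.3, numpy 2.4.6, matplotlib 3.10.9 and scipy 1.17.1.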

Additional observations from a re-analysis of the deposited data

How the results depend on the processing

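The number of one-library sites was 1649 with a score of at least 50, 1942 in lists of equal length and 1108 with genes in place of sites, and 2723 to 3050 when a library was left out. In lists of equal length SYD-H moved from the lowest to the highest group in number and in share (exact permutation p = 0.0857 for both), and its median length fell below that of Control (exact permutation p = 0.982). SYD-H also passed Control in mean score (exact permutation p = 0.957) and, with a score of at least 50, in the share of sites with a shared neighbour (exact permutation p = 0.982). The shorter length of one-library peaks lost its call with a score of at least 50 (-47.7 bases, exact permutation p = 0.0508) and in lists of equal length (-45.6 bases). The cause was not tested. The calls chose the members, so the p-values for number, share, score and fold describe how the libraries are arranged and support nothing about the members. Leaving out each library gave exact permutation p-values of 0.0429 to 0.286 for number, 0.0643 to 0.286 for share, 0.121 to 0.564 for score, 0.00357 to 0.00714 for fold, 0.204 to 0.861 for length and 0.504 to 0.968 for the shared neighbour, whose order of SYD-H and Control turned without SYD-H replicate 3, Model replicate 1, Control replicate 2 or Control replicate 3. The within-library differences were then -84.2 to -72.3 bases and -11.1 to -8.26 points.

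With the replicate number as a block, number and share each gave an exact permutation p of 0.0278, the smallest that the block allows. Both measures are read from the calls that chose the members, so these p-values carry no support for a group difference. Deviations of same-numbered libraries from their group means correlated at -0.0130 to 0.0944, with 0 of 9 pairs over 0.1. Those of libraries with other numbers correlated at -0.0755 to 0.0370. No label says what the number marks, so whether it pairs the libraries is not settled here. The block changed no other call. The lists hold called peaks alone, so a site just under the threshold in a library cannot be told from a site without enrichment there.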
